A study of Mus musculus with 24 samples.

Results

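The mouse genes Cdh6, St8sia2, Xirp2, Gas1, Cadm1 and Iqgap2 were described in pulmonary fibroblasts stimulated with TGF-β1, with the cold-inducible RNA-binding protein CIRP, or with both. They are 6 of the 55291 gene symbols counted in every library, and all 6 were among the 16258 genes left after a filter on low counts. The genes were chosen from these same data, for a large difference with recombinant mouse TGF-β1 (rmTGF-β1) or for an interaction of rmTGF-β1 with recombinant mouse CIRP (rmCIRP), so their differences with rmTGF-β1 and their interactions are given as a description, without a test. The choice sets no numerical limit and does not say which gene was taken for which reason or in which genotype.

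The cells were primary lung fibroblasts of C57BL/6 mice aged 4 to 8 weeks, either wild type (WT) or labelled TLR4-/-, a genotype that by its name lacks the receptor TLR4. Each genotype was isolated from a pool of 3 to 4 lungs and used at passages 3 to 6. After a night in low-serum medium, cells of each genotype received PBS, rmCIRP at 1 μg/ml, rmTGF-β1 at 2 ng/ml or both agents for 24 h, and 3 libraries of total RNA were sequenced for each of these 8 conditions. The labels do not say that the 3 libraries came from separate cultures or animals, so every p-value below measures only the spread between libraries, which may be technical.

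TGF-β binds a pair of receptor kinases on the cell surface that phosphorylate SMAD2 and SMAD3, and these enter the nucleus with SMAD4 to change transcription. In lung fibroblasts TGF-β is the classical inducer of the contractile, matrix-producing myofibroblast state. CIRP released from cells acts as a danger signal through TLR4 and its co-receptor MD2, which lead to NF-κB. The 6 genes have different jobs. Cdh6 encodes cadherin-6, a calcium-dependent cell adhesion molecule of the type II classical cadherins. St8sia2 encodes a polysialyltransferase, an enzyme that builds chains of sialic acid on the neural cell adhesion molecule NCAM. Xirp2 encodes an actin-binding protein of the Xin family known from the cell junctions of heart and skeletal muscle. Gas1 encodes a GPI-anchored surface protein that is named for growth arrest and serves as a co-receptor for hedgehog ligands. Cadm1 encodes an immunoglobulin-type adhesion molecule, and Iqgap2 a scaffold protein that binds actin and the GTPases Cdc42 and Rac1.

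In GENCODE M21 on GRCm38, all 6 are protein-coding genes. Cdh6 lies at chr15:13028701-13173675 on the minus strand, St8sia2 at chr7:73939119-74013690 on the minus strand, and Xirp2 at chr2:67446002-67526614 on the plus strand. Gas1 lies at chr13:60174405-60177365 on the minus strand and has a single exon. Cadm1 lies at chr9:47530173-47857637 on the plus strand and Iqgap2 at chr13:95627177-95891922 on the minus strand. Of the exon bases of Gas1, 19.9% overlap the long non-coding gene Gm48488 on the opposite strand, which had at most 5 reads in any library. Of those of Xirp2, 1.4% overlap the antisense gene Gm13601, with at most 1 read. Whether the counting used strand is not given in the sources used here, so reads from these overlaps cannot be assigned with certainty.

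For the 4 genes with the widest differences with rmTGF-β1, the 250 bases before the RefSeq gene start (GRCm38.p6) are shown on the strand of the gene, 5′ to 3′, to set the letters just upstream of the responders beside their RNA levels. Capitals mark matches, on either strand, to the SMAD-binding letters CAGAC or GGCGCC, to the AP-1 element TGANTCA, or to the MEF2 element. They cover chr15:13173676-13173925 for Cdh6, chr7:74013683-74013932 for St8sia2, chr2:67445752-67446001 for Xirp2 and chr13:60177536-60177785 for Gas1.
Cdh6: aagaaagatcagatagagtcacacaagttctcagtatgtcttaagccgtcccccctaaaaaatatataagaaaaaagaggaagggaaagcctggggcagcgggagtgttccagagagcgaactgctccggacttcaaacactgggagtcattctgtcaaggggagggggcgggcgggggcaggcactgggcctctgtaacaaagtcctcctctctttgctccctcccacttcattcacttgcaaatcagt
St8sia2: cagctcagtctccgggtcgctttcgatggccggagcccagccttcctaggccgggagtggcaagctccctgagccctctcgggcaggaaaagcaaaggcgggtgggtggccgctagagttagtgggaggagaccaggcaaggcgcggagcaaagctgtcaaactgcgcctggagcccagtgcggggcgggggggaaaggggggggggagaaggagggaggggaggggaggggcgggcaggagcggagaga
Xirp2: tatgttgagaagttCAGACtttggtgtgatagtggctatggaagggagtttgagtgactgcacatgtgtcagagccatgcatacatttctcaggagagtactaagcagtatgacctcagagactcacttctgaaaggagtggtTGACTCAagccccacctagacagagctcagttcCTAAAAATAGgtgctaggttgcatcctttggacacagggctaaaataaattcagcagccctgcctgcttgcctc
Gas1: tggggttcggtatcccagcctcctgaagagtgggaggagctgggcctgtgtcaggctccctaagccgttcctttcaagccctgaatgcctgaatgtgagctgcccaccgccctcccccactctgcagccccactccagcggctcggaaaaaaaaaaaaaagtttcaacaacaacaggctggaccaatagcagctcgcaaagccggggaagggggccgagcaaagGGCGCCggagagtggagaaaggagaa

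Of 5 genes with an entry, all but Cadm1, Xirp2 held CAGAC 236 bases before its start, the AP-1 element at 107 bases and the MEF2 element at 74 bases. Gas1 held GGCGCC at 26 bases. The windows of Cdh6, St8sia2 and Iqgap2 held none of these letters, and none of the 5 held GGAATG, the TEAD element, or the CArG box bound by SRF. Among the 32817 promoter windows of the same length, 42.2% held CAGAC, 9.59% GGCGCC, 6.75% TGANTCA, 2.92% the MEF2 element, 12.6% GGAATG and 1.47% the CArG box. The matches describe letters only, and CAGAC is common among promoters in general. Base composition differed widely between the windows, with 46.8% G and C in Xirp2, 51.2% in Cdh6, 58.8% in Gas1, 68.8% in St8sia2 and 75.2% in Iqgap2, against a median of 52.4% over all windows. The RefSeq and GENCODE M21 starts were the same for Cdh6, Xirp2 and Iqgap2, and lay 8 bases apart for St8sia2 and 170 bases apart for Gas1.

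Libraries held between 29853346 and 39664606 reads assigned to genes. All 9 fibroblast markers examined, among them Col1a1, Col1a2 and Pdgfra, were present in every condition, while epithelial markers summed to at most 113 normalized counts in any library. Macrophage markers were also present, and the sum of 13 of them was 83038 to 102273 normalized counts in WT libraries and 339875 to 437075 in libraries labelled TLR4-/-. Tlr4 mRNA did not check the genotype label, with 630 to 802 normalized counts in WT and 702 to 941 in TLR4-/- libraries. Xist had 0 to 3 reads in WT and 4403 to 6201 in TLR4-/- libraries, so genotype, pool of lungs and sex of the cells cannot be told apart. In TLR4-/- cells with rmTGF-β1, library 2 had the weakest and library 3 the strongest response. The 938 genes called higher with rmTGF-β1 in WT cells had a median difference from the PBS mean of 0.162 (log2) in library 2 and 0.254 in library 3, with 0.222 in library 1. Libraries with both agents were measured from the rmCIRP mean of their genotype. Of these, TLR4-/- library 3 had a median of -0.194 for 18 direct TGF-β target genes, where the other 2 libraries had 0.0927 and 0.108. For the 938 genes its median was 0.184, against 0.217 and 0.231.

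Levels below are normalized counts, that is read counts divided by a size factor of the library. They follow the order of libraries 1, 2 and 3 of a condition, and they compare libraries for a gene, not genes with each other. Per length, in RPKM over the exons of GENCODE M21, the WT means with PBS were 1.78 for Iqgap2, 1.34 for Gas1, 0.813 for Cdh6, 0.382 for St8sia2, 0.154 for Cadm1 and 0.0459 for Xirp2. With rmTGF-β1 they were 2.98 for Cdh6, 1.73 for Iqgap2, 1.30 for St8sia2, 0.772 for Gas1, 0.202 for Cadm1 and 0.0936 for Xirp2. In WT cells Cdh6 thus had the highest mean level of the 6 after rmTGF-β1 and Xirp2 the lowest in both conditions.

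**Figure D1:**
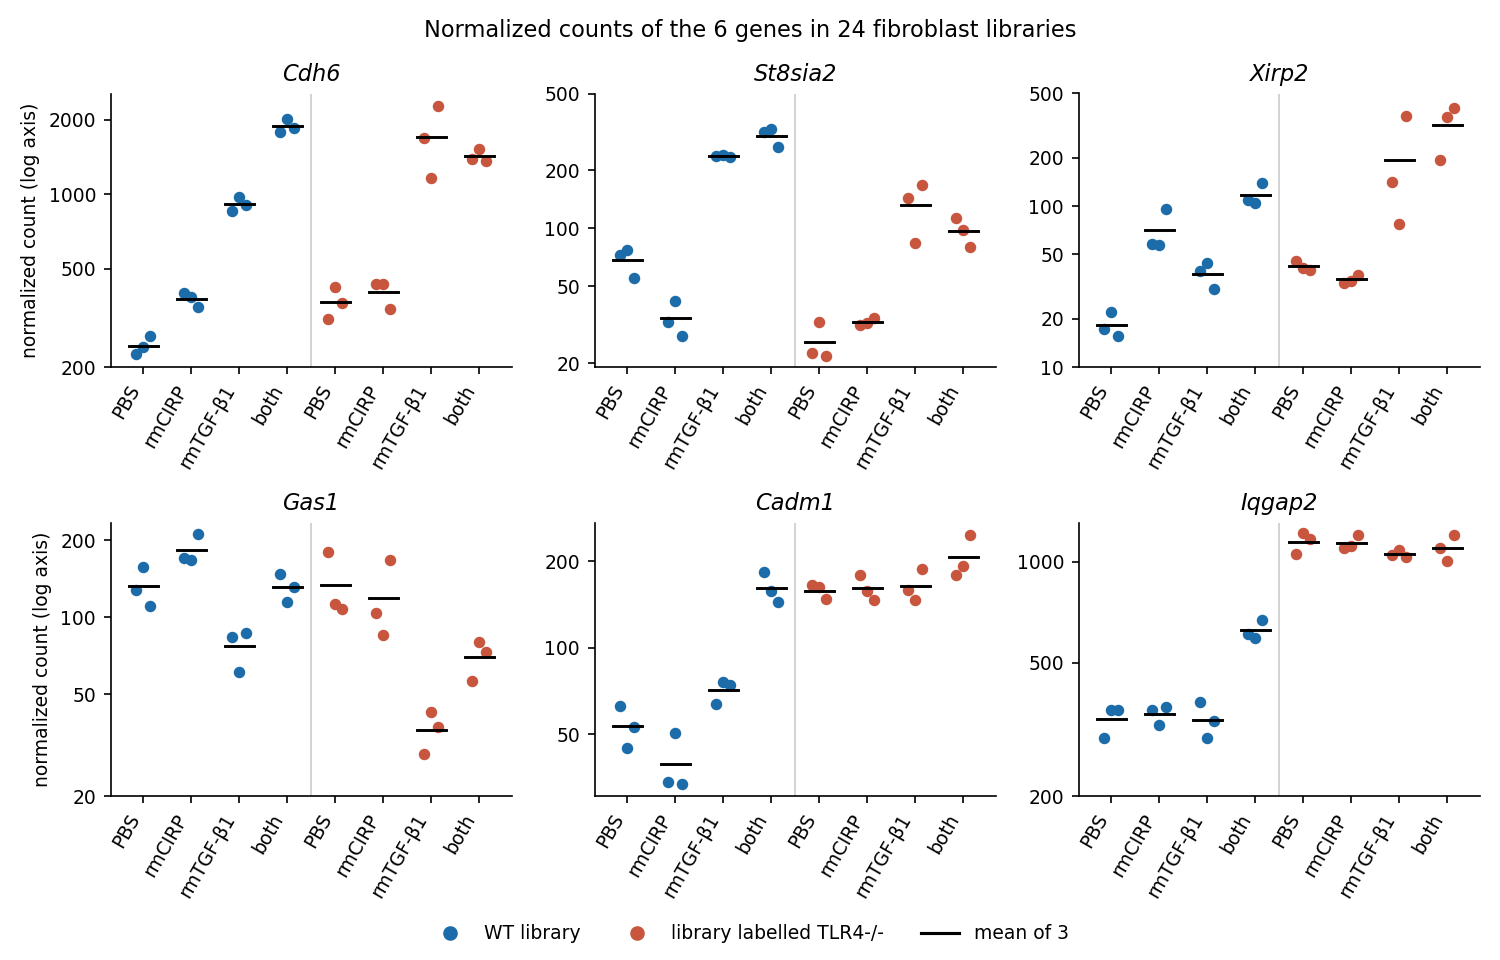
Each panel plots the normalized count (log axis, its range differing between panels) of a gene in the 24 libraries by condition, with WT in blue and TLR4-/- in red, and a black line at the mean of 3. Cdh6 and St8sia2 are higher with rmTGF-β1 in both genotypes, Gas1 is lower, and Cadm1 and Iqgap2 stand high in WT cells mainly with both agents.

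Per length, the adhesion gene Cdh6 had the highest WT mean of the genes described with rmTGF-β1, but not with PBS. In WT cells it had 225, 241 and 266 normalized counts with PBS and 851, 975 and 902 with rmTGF-β1, a difference of 1.89 on the log2 scale (SE 0.17, n = 3 per condition) or 3.73-fold in the means. With rmCIRP alone the libraries had 399, 384 and 351, and with both agents 1787, 2017 and 1850. The 4 WT conditions therefore did not overlap, and the condition with both agents had the highest mean of all 8. TLR4-/- cells had 314, 421 and 363 with PBS, and 433, 432 and 344 when given rmCIRP, which overlapped. With rmTGF-β1 it had 1680, 1162 and 2271, and with both agents 1389, 1521 and 1356. The difference with rmTGF-β1 in these cells was 2.23 (SE 0.16), and in the presence of rmCIRP it was 1.81 (SE 0.16), against 2.31 (SE 0.16) in WT cells with rmCIRP. Without library 3 of rmTGF-β1, the highest of the 3, the first of these was 1.97. In the order of levels, WT cells with both agents (mean 1885), TLR4-/- with rmTGF-β1 (mean 1704) and TLR4-/- with both (mean 1422) were followed by WT with rmTGF-β1 (mean 909), and neighbours among the first 3 overlapped.

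St8sia2, the polysialyltransferase gene, had fewer reads but as wide a relative difference. In WT cells it had 73.1, 76.9 and 55.2 normalized counts with PBS and 237, 241 and 234 with rmTGF-β1, a log2 difference of 1.79 (SE 0.18). Without rmTGF-β1, rmCIRP left it at 32.9, 42.2 and 27.7, below every PBS library. With rmTGF-β1 present, rmCIRP took it to 315, 327 and 263, above every library with rmTGF-β1 alone. The side on which the rmCIRP libraries lay thus depended on rmTGF-β1, with log2 differences of -1.01 (SE 0.25) without it and 0.34 (SE 0.15) with it, and an interaction of 1.35 (SE 0.29). TLR4-/- cells had 22.7, 32.9 and 21.9 with PBS, and 31.5, 32.5 and 34.4 when given rmCIRP. They had 144, 84.0 and 168 with rmTGF-β1, and 113, 97.9 and 80.3 after both agents. The rmCIRP libraries overlapped their controls there in each pair, and the interaction was -0.81 (SE 0.35). Its difference with rmTGF-β1 was 2.38 (SE 0.23) in TLR4-/- cells without rmCIRP and 1.56 (SE 0.23) with it, against 3.13 (SE 0.20) in WT cells with rmCIRP. WT cells with PBS had a higher level than TLR4-/- cells with PBS, by 68.4 to 25.8 in the means, and their libraries did not overlap.

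Xirp2, the Xin-family gene, was near the lower end of what could be counted and was the most variable of the 6. With PBS, WT cells had 17.3, 22 and 15.6 normalized counts, resting on 15 to 22 reads per library. They had 58.4, 57.6 and 95.8 when given rmCIRP, 39.3, 44.0 and 30.4 when given rmTGF-β1, and 109, 104 and 139 after both. Each agent alone thus gave levels above every PBS library, and both together gave the highest in WT cells. TLR4-/- cells had 45.4, 41.3 and 39.8 with PBS, and 33.4, 34.3 and 37.4 when given rmCIRP, below each PBS library. With rmTGF-β1 they had 141, 77.6 and 360, a 76.8% coefficient of variation, and with both 192, 357 and 404. The log2 difference with rmTGF-β1 was 1.03 (SE 0.63) in WT and 2.22 (SE 0.41) in TLR4-/- cells, and the latter was 1.39 without library 3. In the presence of rmCIRP it was 0.72 (SE 0.41) in WT and 3.17 (SE 0.41) in TLR4-/- cells. Of 10 striated muscle markers, Myh6, Myh7, Ckm and Mb had at most 2 reads in any library, while Acta1 had mean levels of 2225 to 8317 normalized counts over the 8 conditions. Mean levels were 113 to 219 for Tnnt2 and 25.7 to 35.4 for Tnni3.

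Gas1, the hedgehog co-receptor gene, was lower with rmTGF-β1 in every pairing. In WT cells it had 128, 157 and 111 normalized counts with PBS and 83.7, 61.0 and 87.1 with rmTGF-β1, a log2 difference of -0.77 (SE 0.23). With rmCIRP it had 171, 168 and 212, and with both agents 148, 115 and 131, so that rmCIRP libraries lay above their controls with and without rmTGF-β1. TLR4-/- cells had 180, 113 and 108 with PBS, and 104, 85.4 and 167 when given rmCIRP. They had 29.3, 42.5 and 37.2 after rmTGF-β1, and 56.2, 80.1 and 73.1 after both. The lowest condition of all was therefore rmTGF-β1 alone in TLR4-/- cells, 3 libraries that overlapped no other condition, and the difference from PBS was -1.88 (SE 0.26). In the presence of rmCIRP the difference with rmTGF-β1 was -0.49 (SE 0.21) in WT and -0.76 (SE 0.24) in TLR4-/- cells. Between the highest and the lowest condition, each neighbouring pair in the order of means overlapped except the last.

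Cadm1 and Iqgap2 showed another pattern. For the adhesion gene Cadm1, WT cells had 62.6, 44.9 and 53.1 normalized counts with PBS, and 34.0, 50.4 and 33.6 when given rmCIRP. They had 63.5, 76.0 and 74.4 after rmTGF-β1, and 183, 157 and 144 after both agents. The 3 libraries with both agents lay above the other 9 WT libraries, of which the highest had 76.0, and the interaction was 1.62 (SE 0.26). TLR4-/- cells had 165, 162 and 148 with PBS, and 179, 157 and 146 when given rmCIRP. They had 159, 146 and 188 after rmTGF-β1, and 179, 193 and 246 after both, and neighbouring conditions overlapped. The level of WT cells with both agents, a mean of 161, lay within the range of those TLR4-/- cells that had received PBS or 1 agent.

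For the scaffold gene Iqgap2, WT libraries had 299, 362 and 362 with PBS, 361, 327 and 370 when given rmCIRP, and 381, 299 and 335 after rmTGF-β1. These 9 libraries overlapped, and the log2 difference with rmTGF-β1 was -0.02 (SE 0.09). With both agents they had 610, 591 and 672, above all 9, and the interaction was 0.83 (SE 0.13). TLR4-/- libraries had 1051, 1218 and 1170 with PBS, and 1100, 1114 and 1205 when given rmCIRP. They had 1049, 1085 and 1032 after rmTGF-β1, and 1097, 1004 and 1202 after both. Neighbours among the 4 TLR4-/- conditions in the order of means overlapped, and the interaction there was 0.06 (SE 0.11). The label of a strong rmTGF-β1 responder therefore did not describe Iqgap2 with rmTGF-β1 alone in either genotype, nor Cadm1 in TLR4-/- cells, where the difference was 0.06 (SE 0.14).

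**Figure D2:**
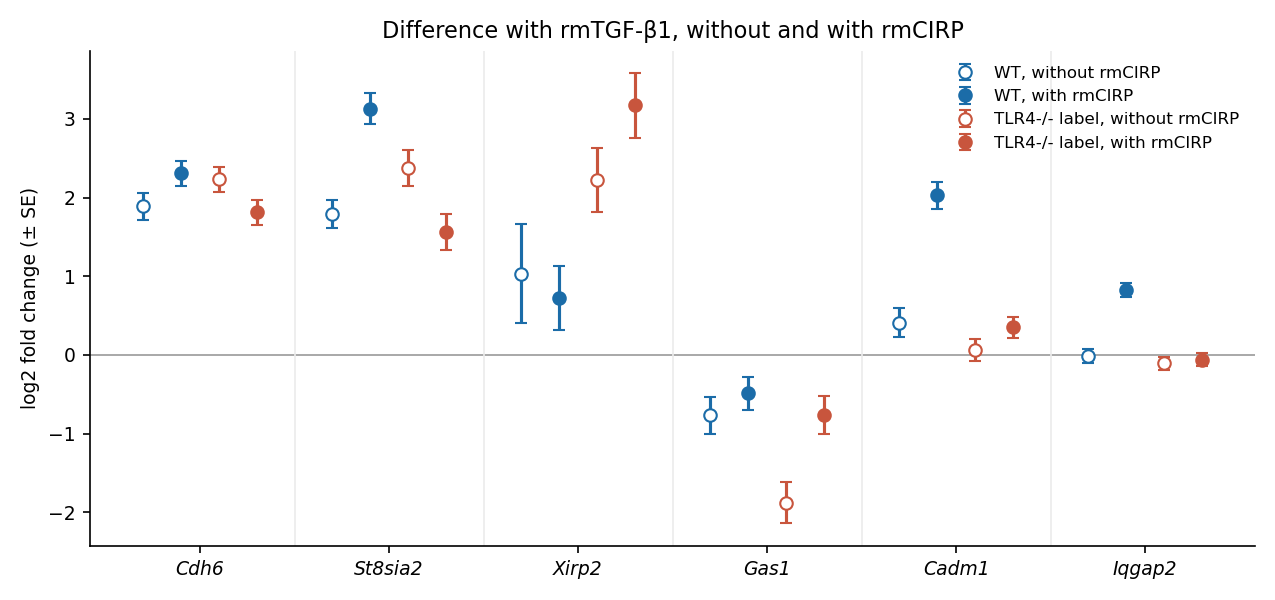
Points give the log2 fold change with rmTGF-β1 of each gene, with bars of 1 SE, in WT (blue) and TLR4-/- cells (red), without rmCIRP (open) and with it (filled). In WT cells with rmCIRP, St8sia2 reached 3.13, Cadm1 2.03 and Iqgap2 0.82, against 1.79, 0.41 and -0.02 without it.

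The rule of choice does not name the effect of rmCIRP averaged over the libraries without and with rmTGF-β1, and this effect was therefore tested. In WT cells it passed the threshold (adjusted p under 0.1, quasi-likelihood F-test of edgeR, Benjamini-Hochberg adjusted over all genes) for 6 of the 6 genes, where 56.0% of all genes tested did. Of the 6, 5 rose and St8sia2 fell. Xirp2 rose by 1.79 (log2, SE 0.36, edgeR adjusted p = 0.00026) and Cdh6 by 0.84 (SE 0.12, edgeR adjusted p = 4.5e-06). Gas1 rose by 0.61 (SE 0.16, edgeR adjusted p = 0.0024), Iqgap2 by 0.46 (SE 0.07, edgeR adjusted p = 4e-06) and Cadm1 by 0.36 (SE 0.13, edgeR adjusted p = 0.026). For St8sia2 the average was -0.33 (SE 0.15, edgeR adjusted p = 0.063), and it joined a lower level without rmTGF-β1 to a higher one with it. For Cadm1 the average likewise joined -0.45 (SE 0.21) without rmTGF-β1 to 1.17 (SE 0.16) with it, and for Iqgap2 0.04 (SE 0.10) to 0.88 (SE 0.09). Where a gene was higher mainly with both agents, as Cadm1 and Iqgap2 were, the average is not separate from the interaction that may have chosen it. The call for St8sia2 was lost in 5 of 12 fits that left out 1 library, those without libraries 1 or 2 of PBS, libraries 1 or 3 of rmCIRP or library 3 of both agents, with adjusted p up to 0.21. The call for Cadm1 was lost without library 2 of rmCIRP, where the average was 0.26 (edgeR adjusted p = 0.14). The median over the 6 genes was 0.54, against -0.0183 over all genes. Because Cadm1 and Iqgap2 are in them, the count of 6 and this median are not separate from the choice of the genes.

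In TLR4-/- cells the same effect passed for 0 of the 6 genes and for 0% of all genes tested by edgeR. Over all genes 1244 had an unadjusted p under 0.05, and DESeq2 likewise called 0. Without a filter on low counts edgeR called 517, with Gas1 among them (edgeR adjusted p = 0.047), and without library 1 with both agents it called 163. The averages were -0.06 (SE 0.11) for Cdh6, -0.05 (SE 0.18) for St8sia2, 0.21 (SE 0.31) for Xirp2, 0.39 (SE 0.18) for Gas1, 0.17 (SE 0.10) for Cadm1 and 0.03 (SE 0.06) for Iqgap2. Gas1 alone of the 6 had an unadjusted p under 0.05 with an edgeR adjusted p of 0.65. The average can hide effects that differ with rmTGF-β1. For Gas1 the difference with rmCIRP was -0.17 (SE 0.22) without rmTGF-β1 and 0.94 (SE 0.29) with it, where the libraries did not overlap. For Xirp2 the difference was -0.26 (SE 0.54) without rmTGF-β1 and 0.69 (SE 0.32) with it, where the libraries overlapped. Over all genes, 2912 had an unadjusted p under 0.05 for both agents against rmTGF-β1 in TLR4-/- cells (lowest edgeR adjusted p = 0.0406), and 2640 for the interaction (lowest edgeR adjusted p = 0.00869).

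The difference between the genotypes in this averaged effect was tested directly. It passed for 3 of the 6 genes, where 38.0% of all genes tested did, so the count alone does not set the 6 genes apart. In all 3 the effect was lower in TLR4-/- than in WT cells. The difference was -0.90 (log2, SE 0.17, edgeR adjusted p = 0.00021) for Cdh6, -1.57 (SE 0.48, edgeR adjusted p = 0.016) for Xirp2 and -0.44 (SE 0.09, edgeR adjusted p = 0.00042) for Iqgap2. For Iqgap2 the WT effect was 0.04 without rmTGF-β1 and 0.88 with it. Its call is therefore not separate from the WT interaction of 0.83, which may have chosen the gene. The difference was -0.23 (SE 0.24) for Gas1, -0.19 (SE 0.16) for Cadm1 and 0.28 (SE 0.23) for St8sia2, and none of these passed (edgeR adjusted p of 0.52, 0.41 and 0.38). The lack of a call does not show like responses, because averaging can cancel opposite effects. Without and with rmTGF-β1, St8sia2 was at -1.01 and 0.34 in WT cells and 0.36 and -0.46 in TLR4-/- cells. Cadm1 was at -0.45 and 1.17 in WT cells and 0.03 and 0.31 in TLR4-/- cells. The 3 calls were present in every fit that left out 1 library. Without TLR4-/- library 3 with rmTGF-β1, the difference was -0.76 for Cdh6 and -1.16 for Xirp2, and without library 2 of that condition it was -1.0 and -1.75. Without TLR4-/- library 3 with both agents it was -0.88 for Cdh6, -1.67 for Xirp2 and -0.46 for Iqgap2. In bulk RNA, fewer cells of a type and less RNA per cell cannot be told apart. The summed level of 6 smooth muscle and pericyte markers was 123251 to 135990 normalized counts in the 6 WT libraries without rmCIRP. In the 6 with it, the sum was 85891 to 93758. For TLR4-/- cells the mean sum was 81474 after PBS and 82575 after rmCIRP alone. It was 78030 after rmTGF-β1 alone, against 62830 after both agents. Most of the sum was Cnn1, Actg2 and Myh11. Rgs5 did not fall in WT cells, with means of 177 without and 182 with rmCIRP. In the presence of rmTGF-β1 these were 183 and 202. The other markers of this list all had lower WT means with rmCIRP. The part of these markers in the results was not tested.

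**Figure D3:**
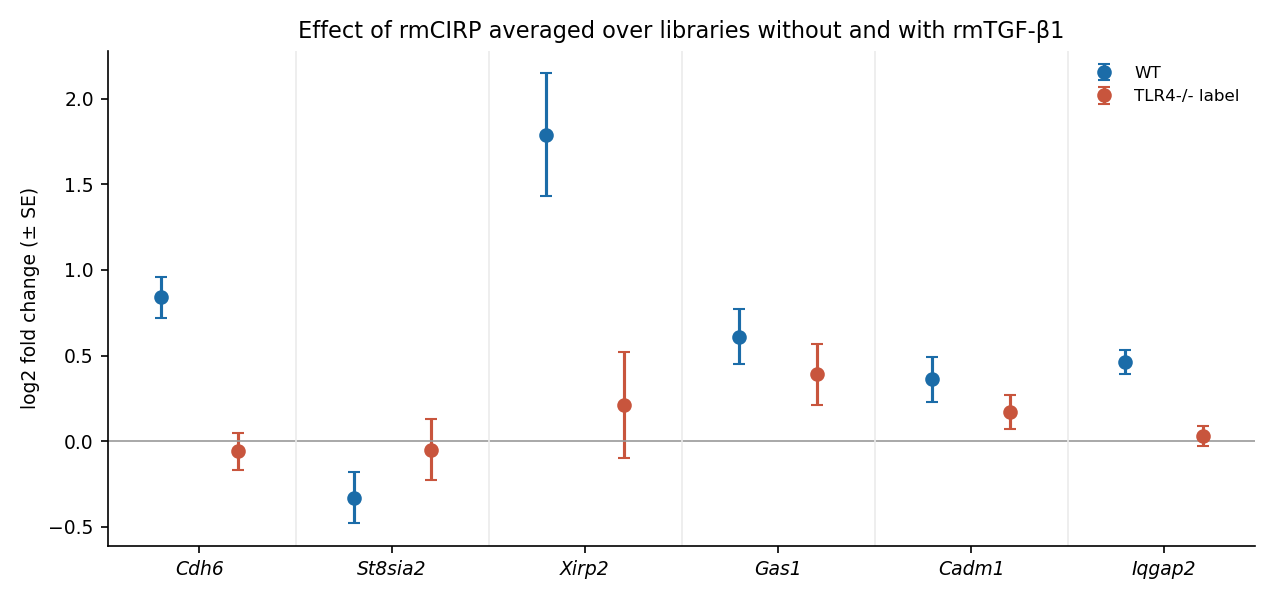
Points give the effect of rmCIRP (log2 fold change, averaged over libraries without and with rmTGF-β1) for each gene in WT (blue) and TLR4-/- cells (red), with bars of 1 SE. Cdh6, Xirp2 and Iqgap2 lie apart between the genotypes, and St8sia2 is the only gene below 0 in WT cells by more than its SE.

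The rule of choice does not name the mean level over the 4 treatments either. The WT libraries with both agents, which may have chosen Cadm1 and Iqgap2, are nevertheless part of this mean level. It differed between the genotypes for 6 of the 6 genes, where 70.0% of all genes tested did, with 4 higher and 2 lower in TLR4-/- cells. Iqgap2 was higher by 1.48 (log2, SE 0.04, edgeR adjusted p = 8.5e-19), and its 12 TLR4-/- libraries (lowest 1004, median 1098, highest 1218) lay above the 12 WT libraries (lowest 299, median 362, highest 672). Cadm1 was higher by 1.29 (SE 0.08, edgeR adjusted p = 1.3e-12), Xirp2 by 1.00 (SE 0.24, edgeR adjusted p = 0.00098) and Cdh6 by 0.30 (SE 0.08, edgeR adjusted p = 0.0029). St8sia2 was lower, with -0.98 (SE 0.11, edgeR adjusted p = 8.8e-08), and so was Gas1, with -0.65 (SE 0.12, edgeR adjusted p = 5.1e-05). For these 5 the libraries of the 2 genotypes overlapped across treatments, and the averaged direction did not hold in every treatment. With rmCIRP, Xirp2 had a lower mean in TLR4-/- than in WT cells (35.0 against 70.6), with both agents so did Cdh6 (1422 against 1885), and with PBS the Gas1 means were 134 and 132. For St8sia2 with rmCIRP the means were close (32.8 in TLR4-/- against 34.2 in WT cells), and the libraries overlapped. All 6 calls were present in every fit that left out 1 library, with Xirp2 between 0.79 and 1.09.

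The macrophage markers moved with the same split. Of 13, 12 were higher in TLR4-/- libraries and 1, Marco, was lower, with a median log2 difference of 2.11, and none had at most 3 reads throughout a condition. Among them C1qa was higher by 3.11 and Csf1r by 2.38, while Marco was at -2.11. Within WT cells the macrophage sum was 83038 to 94130 with both agents and 93457 to 102273 with PBS, and most of that sum was Lyz2, with a mean of 62760 normalized counts of 88818 with both agents. The other markers went both ways. Means were higher with both agents than with PBS for Adgre1 (3777 against 2033), Cd14 (5162 against 1569), Marco (2614 against 954) and Fcgr1 (273 against 60.6). They were lower for others, among them Csf1r (2543 against 3035), C1qb (1998 against 2515) and Mrc1 (766 against 1252). With rmCIRP alone the means were 4014 for Adgre1, 5122 for Cd14, 3289 for Marco and 292 for Fcgr1. In that condition Iqgap2 had a mean of 353 and Cadm1 of 39.3. For the averaged rmCIRP effect in WT cells, 5 of the 13 rose and 7 fell. The part of macrophage RNA in the differences between genotypes, or in the WT levels of Iqgap2 and Cadm1 with both agents, was not tested.

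**Figure D4:**
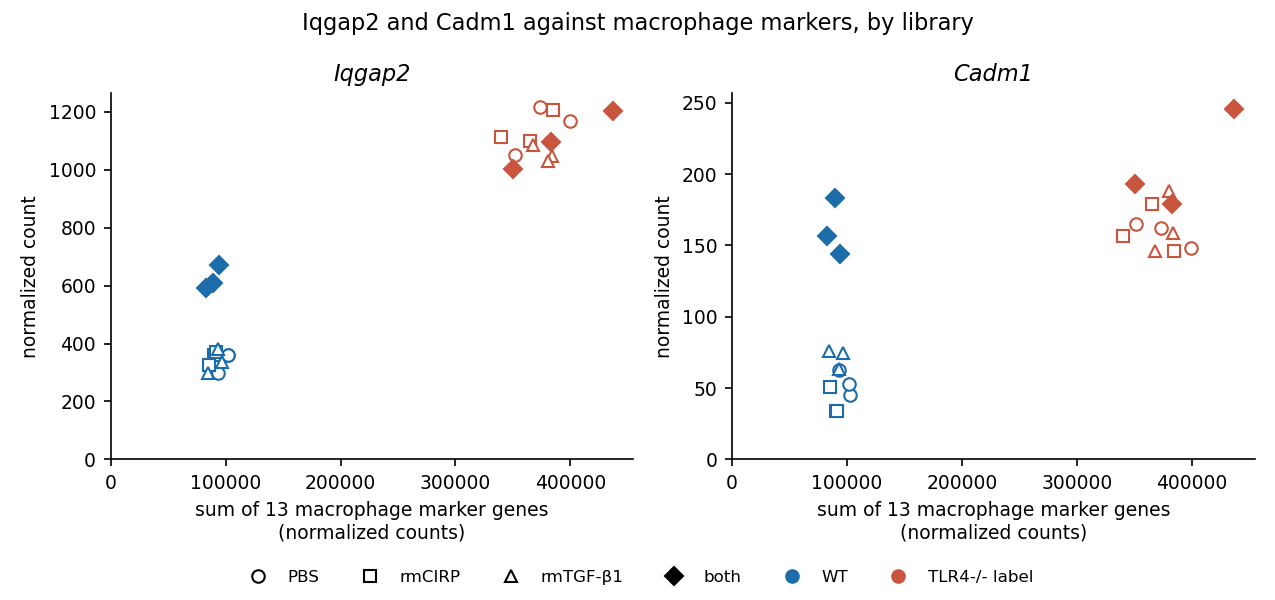
The normalized counts of Iqgap2 (left) and Cadm1 (right) in each of the 24 libraries are plotted against the sum of 13 macrophage marker genes in normalized counts, with WT in blue, TLR4-/- in red and 1 symbol per treatment. The 3 WT libraries with both agents (filled diamonds) lie above the other WT libraries, and the sum itself is mostly Lyz2.

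Genes related to the 6 by family or pathway were examined with the same model, in lists written from general knowledge. With rmTGF-β1 against PBS, 5.77% of all genes tested were higher and 6.65% lower in WT cells, and 12.1% were higher and 11.7% lower in TLR4-/- cells. In WT these were 938 and 1081 genes. They were 1629 and 1354 in a fit of only the libraries compared, so the balance of directions turned, and 483 and 546 without WT library 2 with rmTGF-β1.

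Of 28 cadherins and catenins besides Cdh6, 17 were measured well enough to test, and in WT cells 2 rose and 3 fell, with a list median of -0.08. Cdh10, another type II cadherin, rose by 1.00 (log2, edgeR adjusted p = 4.5e-05), from a mean of 198 to 399 normalized counts, and by 0.90 in TLR4-/- cells. Cdh11, the mesenchymal cadherin, rose by 0.34 (edgeR adjusted p = 3.3e-05). N-cadherin, encoded by Cdh2, fell by 0.46 (edgeR adjusted p = 0.00027), from 3281 to 2387. The TLR4-/- cells had 4 that rose and 2 that fell.

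Of 15 genes of sialic acid synthesis and polysialylation, 11 were tested, and in WT cells 3 rose and 0 fell, with a median of 0.10. Ncam1, the protein that carries polysialic acid, rose by 0.52 (edgeR adjusted p = 0.0011), from 3123 to 4496 normalized counts, and by 0.60 in TLR4-/- cells. Gne and Cmas, which make and activate sialic acid, rose by 0.18 (edgeR adjusted p = 0.049) and 0.13 (edgeR adjusted p = 0.039). St8sia4, the other polysialyltransferase, was at -0.21 (edgeR adjusted p = 0.51) in WT and fell by 0.50 in TLR4-/- cells (edgeR adjusted p = 0.0071). In TLR4-/- cells 1 of the 11 rose and 1 fell.

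Of 18 actin-binding and Z-disc genes related to Xirp2, 16 were tested, and in WT cells 3 rose and 0 fell, with a median of -0.02. They were Csrp2 (0.55, edgeR adjusted p = 0.0012), Flnc, encoding the muscle filamin (0.35, edgeR adjusted p = 0.038), and Nebl (0.31, edgeR adjusted p = 0.063). Xirp1, the nearest relative of Xirp2, was at 0.64 (edgeR adjusted p = 0.32) in WT cells, with a mean of 17.3 normalized counts with PBS, and rose by 1.66 (edgeR adjusted p = 0.0047) in TLR4-/- cells. There, 4 of the 16 rose and 3 fell.

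Of 13 hedgehog ligands, receptors and targets, 10 were tested, with 2 that rose and 1 that fell in WT cells. Boc, a co-receptor like Gas1, rose by 0.36 (edgeR adjusted p = 0.028), the opposite direction to the Gas1 values, while Cdon, the other co-receptor of that type, was at 0.09 (edgeR adjusted p = 0.59). Of the transcription factors of the pathway, Gli2 fell by 0.34 (edgeR adjusted p = 0.046) and Gli3 rose by 0.14 (edgeR adjusted p = 0.073). Ptch1, a target and receptor, was at 0.03 (edgeR adjusted p = 0.84), and Gli1 had a mean of only 6.27 normalized counts with PBS. The WT calls for Gli2, Gli3, Nebl and Gne were each lost in 4 or more of the 6 fits that left out 1 library, that for Flnc in 2 (adjusted p up to 0.18), and those for Boc and Cmas in 1 each (up to 0.12 and 0.26). As to TLR4-/- cells, 2 rose and 2 fell.

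Of 12 Cadm, nectin and associated genes, 10 were tested, and 4 rose and 2 fell in WT and 6 rose and 2 fell in TLR4-/- cells, with medians of 0.11 and 0.25. Nectin3 rose by 0.36 (edgeR adjusted p = 0.00052) and Nectin2 fell by 0.34 (edgeR adjusted p = 0.00046). Epb41l3, whose protein binds the tail of Cadm1, fell by 0.25 (edgeR adjusted p = 0.031), a call lost in 1 of 6 fits without a library. Cadm3 and Cadm4 were at -0.09 and 0.10 and did not pass.

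Of 16 genes of Iqgap proteins and GTPase partners, all were tested, and 1 rose and 2 fell in WT and 2 rose and 3 fell in TLR4-/- cells. Iqgap1, the widely expressed relative of Iqgap2, rose by 0.24 (edgeR adjusted p = 6.1e-05), from a mean of 15657 to 18489 normalized counts. The Cdc42 effectors Cdc42ep2 and Cdc42ep4 fell by 0.36 (edgeR adjusted p = 0.013) and 0.22 (edgeR adjusted p = 0.011). Iqgap3 was at -0.22 (edgeR adjusted p = 0.22).

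For scale, 18 direct TGF-β targets were also examined. In WT cells 10 rose and 1 fell, with a median of 0.18, and in TLR4-/- cells 10 rose and 4 fell, with a median of 0.15. The largest in WT were Bhlhe40 (0.53), Pmepa1 (0.47) and Postn (0.42), and Smad7 rose by 0.17 (edgeR adjusted p = 0.026). Acta2 was at 0.02 (edgeR adjusted p = 0.95) and Fn1 at 0.07 (edgeR adjusted p = 0.57). With PBS their WT means were already 308882 and 235912 normalized counts. The log2 differences of Cdh6 and St8sia2 with rmTGF-β1, a kind of value used in choosing the genes, were several times those of these targets.

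**Figure D5:**
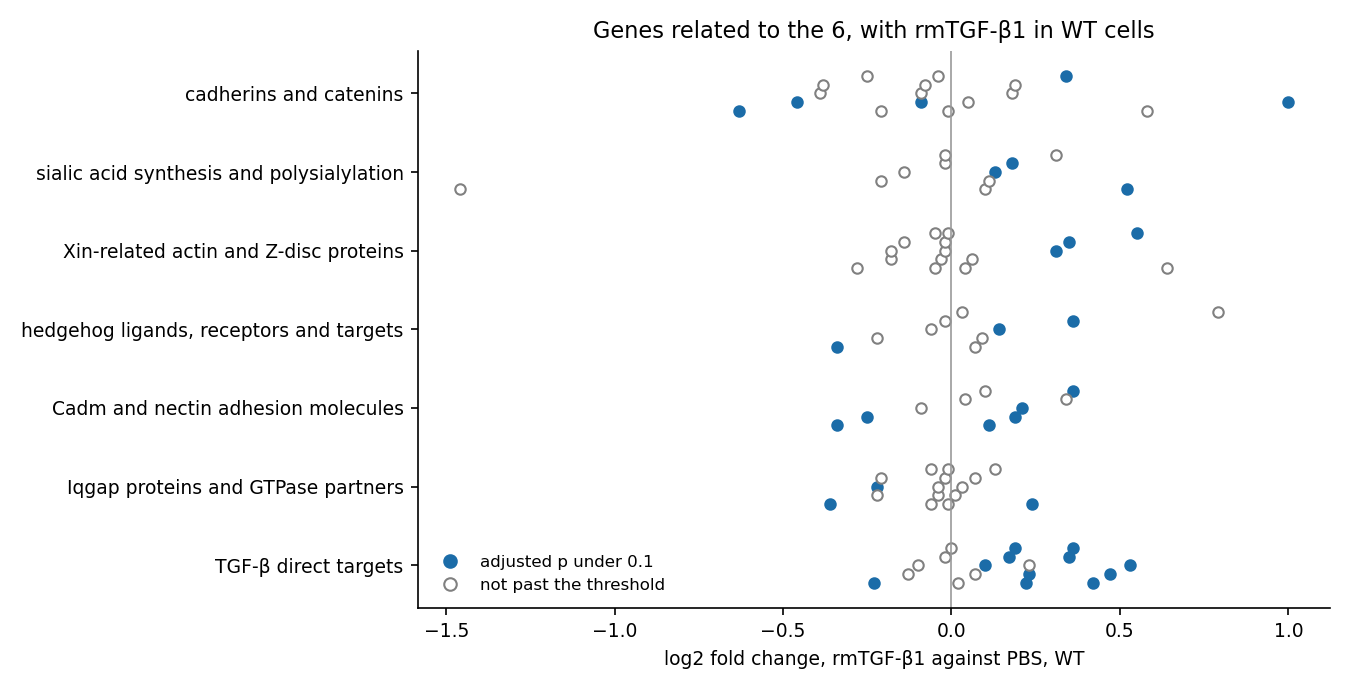
Each point is a related gene at its log2 fold change with rmTGF-β1 against PBS in WT cells, by list, filled where the edgeR adjusted p was under 0.1. Cdh10 at 1.00 is the called gene farthest from 0.

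The genes whose pattern was most like that of each member were found by Pearson's r of log2(normalized count + 1) over the 24 libraries, among the 12311 genes whose mean normalized count reached 50. The libraries share treatments and genotypes, so r is a description. Closest to Cdh6 were Cspg4 (r = 0.964), encoding the NG2 proteoglycan, Hbegf (0.963), encoding a growth factor of the EGF family, and Ust (0.963), encoding a sulfotransferase. Closest to St8sia2 were Galnt10 (0.977) and Chsy1 (0.961), both encoding glycosyltransferases, and Fstl3 (0.957), encoding an inhibitor of activins. Among the closest to Xirp2 were Rnf19b (0.965) and Acsbg1 (0.945). For Gas1 they were Arhgap6 (0.918), Ptx3 (0.892), encoding a secreted pentraxin, and Nod1 (0.887), encoding an intracellular receptor for bacterial peptides.

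For Iqgap2 the nearest genes were Pik3cg (0.971), Csf2rb2 (0.969) and Stk10 (0.968), and for Cadm1 they were Stk17b (0.917), Pcolce2 (0.906) and Slc39a8 (0.903). Ranked by Spearman's rank correlation in place of r, 2 of the 3 nearest genes were shared for each of St8sia2, Xirp2 and Gas1, and 0 of 3 for Cdh6, Cadm1 and Iqgap2. Among the members themselves, r was highest for Cadm1 with Iqgap2 (0.87), followed by Cdh6 with Xirp2 (0.79) and Cdh6 with St8sia2 (0.77). Gas1 had a negative r with each of the other 5, from -0.62 with Cdh6 to -0.37 with Iqgap2.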

How the data were processed

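Total RNA of 24 libraries was prepared with a stranded kit and sequenced by the authors. They used STAR2 for alignment against mouse GENCODE and deposited ht-seq's raw count for every gene symbol, with nothing normalized. The submitters' processing notes name NCBIM37; the annotation release, the strand option and the versions are not given in the sources used here. Of the 55291 symbols, 53292 match GENCODE M21, from which positions and exon lengths were taken. The 5 tally lines were left out.

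Libraries were grouped by their labels into 8 conditions of 3. Genes were kept by filterByExpr, scaled by TMM and fitted in R 4.3.3 with edgeR 4.0.16 (glmQLFit, 1 mean per condition over 24 libraries), and contrasts were tested with glmQLFTest and Benjamini-Hochberg adjustment over the 16258 genes tested, at an adjusted p of 0.1 as in the study. The SE of a log2 fold change is its absolute value over the root of F. Normalized counts use the size factors of DESeq2 1.42.0 and serve only to describe levels. The common biological coefficient of variation was 0.0571. The median log2 fold change over all genes was within 0.0215 of 0 in every contrast. The script was tested on simulated counts.

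The members and lists were chosen with earlier results of these data known. Named relatives are up to 3 genes per list past the threshold in WT with the largest change and at least 50 normalized counts on average. The nearest family members are named whatever their values, and a few others (Ptch1, Gli1, Smad7, Acta2 and Fn1) were chosen after their values were seen. Replicate numbers are shared between conditions in the labels, but same-numbered libraries were little correlated on average, so the model has no term for them. Alternatives tried were DESeq2, RLE scaling, no filter, a mean count of at least 10, a replicate block, only the libraries compared, and leaving out each library. Promoter windows are from RefSeq. Some genes that these rules select are not reported here.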

Additional observations from a re-analysis of the deposited data

Results flagged for a closer look

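The effect of rmCIRP averaged over libraries without and with rmTGF-β1 differed between the genotypes for 3 of the 6 genes in a direct test. Of all genes tested 38.0% did, so the count alone does not set the 6 genes apart. The TLR4-/- minus WT difference was -0.90 (log2) for Cdh6, with 0.84 in WT and -0.06 in TLR4-/- cells. It was -1.57 for Xirp2, with 1.79 in WT and 0.21 in TLR4-/- cells, and -0.44 for Iqgap2, with 0.46 and 0.03. Without and with rmTGF-β1, the Cdh6 effect was 0.63 and 1.05 in WT and 0.15 and -0.27 in TLR4-/- cells. The 0.21 for Xirp2 joined -0.26 (SE 0.54) without rmTGF-β1 to 0.69 (SE 0.32) with it. For Iqgap2 the WT effect was 0.04 without rmTGF-β1 and 0.88 with it. Its average is not separate from the interaction that may have chosen the gene. The reason for these differences between the genotypes was not tested.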

How the results depend on the processing

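For the 6 genes, 238 of 240 values under alternatives that left out no library were counted as unchanged. For tested values this means the same direction and the same side of the threshold. For the untested differences with rmTGF-β1 and the interaction, it means the same sign and a shift below the standard deviation between libraries of a condition. Without a filter on low counts, Gas1 passed in TLR4-/- cells for the averaged rmCIRP effect (0.39, edgeR adjusted p = 0.047), and the count of genes called for that effect went from 0 to 517. Leaving out 1 library, that count was 0 to 163 (163 without TLR4-/- library 1 with both agents, 1 without TLR4-/- library 3 with rmCIRP). The calls for rmTGF-β1 against PBS numbered 2019 in WT and 1029 to 1690 without a library (1029 without library 2 with rmTGF-β1, 1253 without library 3 with PBS), and 3884 in TLR4-/- and 2517 to 3783 without a library (2517 without library 3 with rmTGF-β1). Leaving out 1 library also turned the sign of values that had not passed: the averaged effect in TLR4-/- cells was -0.17 to 0.07 for Cdh6, -0.17 to 0.06 for St8sia2 and -0.01 to 0.06 for Iqgap2, and the difference with rmTGF-β1 was -0.14 to 0.04 for Cdon in TLR4-/- and -0.29 to 0.10 for Cadm3 in WT cells. The cause was not tested. For the related genes, 316 values without a library left out stayed on their side, 5 passed that had not and 3 were lost. With a replicate block the calls numbered 2103 and 3891 for rmTGF-β1 in WT and TLR4-/- cells, and 9110, 0 and 6152 for the averaged effect in WT, in TLR4-/- and for their difference, and no call for the 6 genes changed. Same-numbered libraries had mean correlations of -0.00345 in WT and 0.0315 in TLR4-/- cells, with 3 of 36 pairs over 0.1. Those 3 pairs all held a TLR4-/- library with rmTGF-β1 alone. Its correlation with the library given both agents was 0.369 for number 3 and 0.182 for number 1. With the rmCIRP library it was 0.163 for number 2. A shared origin of these libraries was not tested. Xirp2 in WT cells with PBS rests on 15 to 22 reads per library.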
